A study of Homo sapiens with 6 samples.

Results

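The chemokine receptor genes CX3CR1, CCR1, CCR2, CCR7, CXCR2, CXCR3 and CXCR4 were followed by RNA sequencing in OCI-AML2, a human line that was established from acute myeloid leukemia. They are 7 of the 58233 genes in the count table, found by symbol, and 5 of them were among the 13028 genes that passed a filter on low counts. CCR7 and CXCR3 did not pass it. The genes were chosen with earlier measured values of the same comparison in view, so their levels and fold changes are given as a description, without a test. The 3 IKZF1-ko libraries came from cells in which CRISPR editing was aimed at IKZF1, which encodes Ikaros, a zinc-finger regulator of transcription in blood cells. The 3 NT control libraries came from cells that carried a non-targeting control. Both groups share the OCI-AML2 background and RPMI medium with 20% fetal bovine serum, and no drug treatment is stated. The sources describe the replicates both as separate cell lines and as triplicate RNA isolations, so the p-values rest on a spread between libraries that may be technical only. The series set the groups against each other to look for expression differences that accompany IKZF1 loss.

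Chemokine receptors are membrane receptors with multiple transmembrane helices that couple mainly to inhibitory G proteins. Binding of a chemokine, a small secreted protein, steers leukocytes along the chemokine gradient until arrestins and receptor kinases quench the signal. CX3CR1, the receptor of fractalkine, marks nonclassical monocytes and microglia, whereas CCR2 marks classical monocytes and draws them out of the bone marrow. CCR1 is a myeloid receptor for inflammatory CC chemokines, CXCR2 guides neutrophils, and CXCR4 holds blood stem cells and leukemia cells in the marrow through CXCL12. CXCR3 and CCR7 serve mainly lymphocytes and, for CCR7, dendritic cells on their way to lymph nodes.

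Library totals were 15250588, 18214328 and 16751839 counts in IKZF1-ko replicates 1, 2 and 3, and 11699047, 14983528 and 11300519 counts in NT control replicates 1, 2 and 3. IKZF1 itself had 421, 426 and 436 CPM (counts scaled to a common library total by TMM) in IKZF1-ko, against 331, 292 and 334 CPM in NT control. Counts per gene do not show the edited sequence or the protein, and exons of IKZF1 overlap those of an antisense gene, so this mRNA level does not check the labels. IKZF1-ko replicate 1 and NT control replicate 2 stood apart from the other 4 libraries on the first principal component, which held 67.6% of the variance. The mean of 14 genes known to respond to low oxygen was also highest in these libraries, at 0.96, -0.30 and -0.32 in IKZF1-ko and -0.58, 0.77 and -0.53 in NT control, on the log2 scale relative to the 6-library mean. The comparison was therefore made on group alone, within the other 4 libraries, and in all 6 with a term for the library set. On group alone edgeR called 0 of 13028 genes (0%) at an adjusted p of 0.05, with 456 genes (3.50%) at an unadjusted p under 0.05, and DESeq2 called 71. Within the 4 libraries it called 1908 of 12951 genes (14.7%), and with the library-set term 1765 genes (13.5%), of which 903 (6.93%) were higher and 862 (6.62%) lower in IKZF1-ko. Of the 5 receptors above the filter, 0 were called on group alone and 5 were called in each of the other fits. Those counts carry no weight as evidence, since the genes were picked from this contrast.

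Promoter windows are shown for the 3 receptors that were higher in IKZF1-ko and for CXCR4, which was highest in the libraries that stood apart. They place the receptors on the genome and show which core letters of known factors they hold. Each runs from 250 bases before to 50 bases after a RefSeq transcription start on build GRCh38.p14. Each is written 5′ to 3′ on the gene's strand, with motif letters in capitals. CX3CR1 and CXCR4 had 3 windows each, and the window nearest the gene's start in GENCODE 29 was taken. The RefSeq start used lay 377 bases from that of GENCODE 29 for CCR2 and 739 bases for CXCR2. Other windows of these receptors are not described. The searched letters were TGGGAA, the core bound by Ikaros, GGAAGT, the core bound by ETS factors such as PU.1, and ACGTG or GCGTG, the core of hypoxia response elements, on both strands. TGGGAA and GGAAGT can overlap through their GGAA letters. Of 35116 RefSeq promoter windows of this length, 24.0% held TGGGAA, 22.8% held GGAAGT and 48.4% held a hypoxia core.
CX3CR1, chr3:39281686-39281985, minus strand: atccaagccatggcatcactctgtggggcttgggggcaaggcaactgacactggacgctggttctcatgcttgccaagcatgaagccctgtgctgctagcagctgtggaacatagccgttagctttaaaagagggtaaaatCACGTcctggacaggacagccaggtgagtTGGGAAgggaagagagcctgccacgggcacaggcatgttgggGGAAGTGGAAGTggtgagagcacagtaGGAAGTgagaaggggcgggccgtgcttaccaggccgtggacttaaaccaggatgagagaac
CCR1, chr3:46208264-46208563, minus strand: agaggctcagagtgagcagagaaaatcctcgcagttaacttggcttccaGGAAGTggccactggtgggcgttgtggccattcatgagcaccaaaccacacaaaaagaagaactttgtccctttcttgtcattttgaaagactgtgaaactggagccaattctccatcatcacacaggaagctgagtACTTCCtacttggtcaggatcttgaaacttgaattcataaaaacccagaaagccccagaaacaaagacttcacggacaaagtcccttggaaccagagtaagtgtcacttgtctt
CCR2, chr3:46353861-46354160, plus strand: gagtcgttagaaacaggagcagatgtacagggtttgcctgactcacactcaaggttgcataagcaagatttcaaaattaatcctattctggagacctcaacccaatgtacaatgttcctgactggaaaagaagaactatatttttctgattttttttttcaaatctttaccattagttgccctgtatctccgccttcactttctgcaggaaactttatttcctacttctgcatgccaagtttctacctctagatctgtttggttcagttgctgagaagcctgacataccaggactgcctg
CXCR4, chr2:136118100-136118399, minus strand: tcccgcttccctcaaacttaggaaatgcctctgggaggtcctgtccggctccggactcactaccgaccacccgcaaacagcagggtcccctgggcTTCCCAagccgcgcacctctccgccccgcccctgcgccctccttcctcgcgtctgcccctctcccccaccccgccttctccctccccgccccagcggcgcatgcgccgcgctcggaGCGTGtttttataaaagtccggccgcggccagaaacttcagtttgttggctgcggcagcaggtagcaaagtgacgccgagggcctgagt
The CX3CR1 window held TGGGAA with its first base at position -80 from the start, GGAAGT at -38, -32 and -11, the first pair of these side by side, and a hypoxia core on the opposite strand at -109. The CCR1 window held GGAAGT at -201 and, on the opposite strand, at -64, and the CCR2 window held none of the searched letters. In the CXCR4 window TGGGAA lay on the opposite strand at -155 and GCGTG at -39. The CXCR2 window held GGAAGT at -23 and GCGTG at -87, and the CXCR3 window held GGAAGT on the opposite strand at -29. A match of letters is a description and not a binding site, and no binding was measured.

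CX3CR1 mRNA was low in both groups and showed the widest separation of the receptors. CX3CR1 (ENSG00000168329, chr3:39263494-39281735 on GRCh38, minus strand) had 52, 177 and 134 counts in IKZF1-ko replicates 1, 2 and 3, against 23, 12 and 28 counts in NT control replicates 1, 2 and 3. In CPM these were 3.47, 9.66 and 7.92 in IKZF1-ko, against 1.95, 0.819 and 2.45 in NT control. The groups did not overlap, although IKZF1-ko replicate 1 lay close to the highest control, and its 95% Poisson counting interval of 2.60 to 4.56 CPM overlapped the interval of 1.63 to 3.54 CPM of NT control replicate 3. The means were 7.02 ± 3.19 CPM in IKZF1-ko and 1.74 ± 0.836 CPM in NT control (SD, n = 3 each). In bulk RNA a difference in the share of cells that express CX3CR1 cannot be told apart from a difference in RNA per expressing cell. Counting intervals cover counting error only. Within each group the library that stood apart was the lowest, 2.53-fold below the mean of the others in IKZF1-ko and 2.69-fold below it in NT control.

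The CX3CR1 difference was close to 4-fold in each of the 3 fits, and depended on single libraries when the library set was left out. The fitted log2 fold change, IKZF1-ko over NT control, was 2.03 (SE 0.52) on group alone, 2.00 (SE 0.22) in the 4 libraries and 2.01 (SE 0.20) with the library-set term. The last is a 4.04-fold higher level in IKZF1-ko. With 1 library left out, the value on group alone lay between 1.68 (without NT control replicate 2) and 2.36 (without NT control replicate 3), or 3.20- to 5.14-fold. Within the pair of libraries that stood apart, with 15250588 counts in IKZF1-ko replicate 1 and 14983528 in NT control replicate 2, the ratio was 4.24 with a 95% counting interval of 2.23 to 8.73. In the other 4 libraries depth went with the group, with 18214328 and 16751839 counts in IKZF1-ko against 11699047 and 11300519 in NT control, and the part of depth in the result was not tested.

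CCR2 and CCR1, both on the short arm of chromosome 3, were higher in IKZF1-ko by smaller folds. CCR2 (ENSG00000121807, chr3:46353734-46360928, plus strand) had 70.6, 75.7 and 75.8 CPM in IKZF1-ko, against 53.5, 40.3 and 57.1 CPM in NT control. The IKZF1-ko values lay within a narrow range above all controls, and NT control replicate 2 was the lowest. The means were 74.1 ± 2.96 CPM in IKZF1-ko and 50.3 ± 8.84 CPM in NT control (SD, n = 3 each). On the log2 scale the fold change was 0.56 (SE 0.15) on group alone, 0.45 (SE 0.063) in the 4 libraries and 0.57 (SE 0.070) with the library-set term. The ratio was 1.75 (95% counting interval 1.58 to 1.94) in the pair that stood apart and 1.37 in the other 4 libraries, which lies below that interval of counting error.

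CCR1 had the tightest replicates of the receptors. CCR1 (ENSG00000163823, chr3:46201709-46208396, minus strand) had 115, 113 and 107 CPM in IKZF1-ko, against 84.8, 84.1 and 86.3 CPM in NT control. The groups did not overlap, and the library that stood apart was at 1.05 times the mean of the others in IKZF1-ko and at 0.983 times it in NT control. The means were 112 ± 4.13 CPM in IKZF1-ko and 85.1 ± 1.10 CPM in NT control (SD, n = 3 each), and the log2 fold change was 0.39 (SE 0.086), 0.36 (SE 0.055) and 0.39 (SE 0.052) on group alone, in the 4 libraries and with the library-set term. The pair that stood apart gave a ratio of 1.37 (95% counting interval 1.27 to 1.47) and the other 4 libraries 1.28. CX3CR1, CCR2 and CCR1 were the 3 receptors of the 5 above the filter whose groups did not overlap, where 9.35% of all tested genes had groups that did not overlap.

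**Figure D1:**
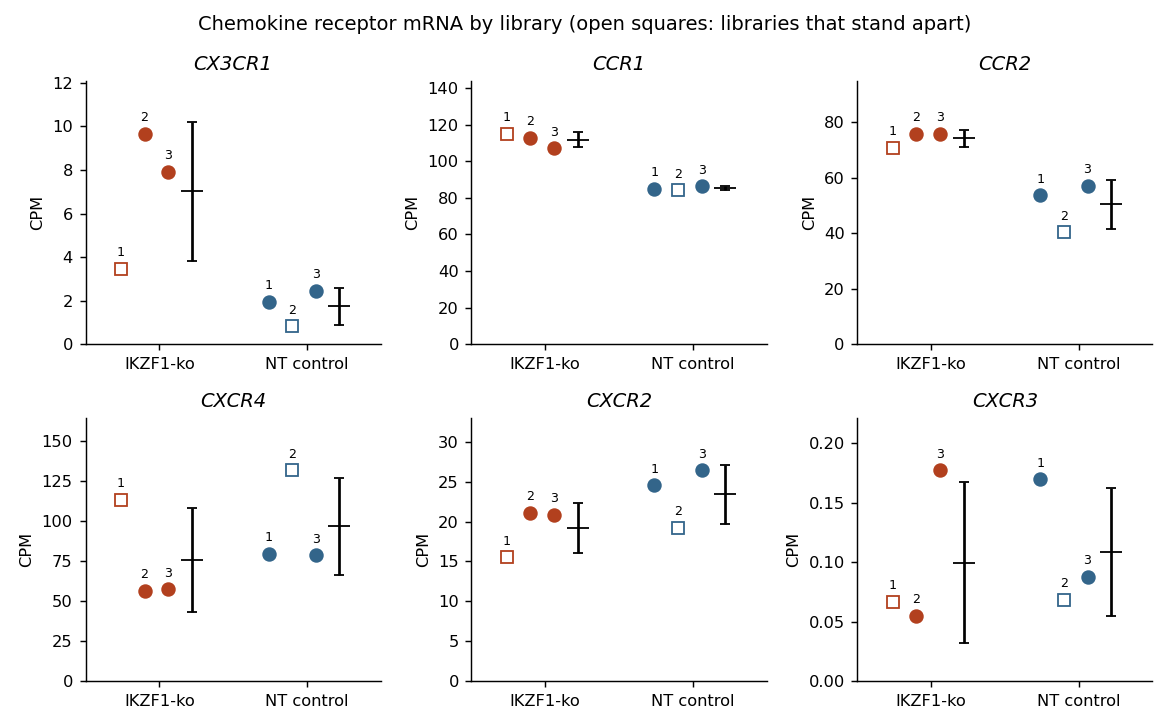
CPM (TMM-scaled) of the 6 receptors with any counts in each library, with its replicate number, and the mean with SD of 3 libraries; open squares are IKZF1-ko replicate 1 and NT control replicate 2, which stood apart. CX3CR1, CCR1 and CCR2 do not overlap between groups, CXCR4 follows the open squares, and CXCR3 rests on 1 to 3 counts per library.

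CXCR4 varied more between libraries of a group than between groups. CXCR4 (ENSG00000121966, chr2:136114349-136118165, minus strand) had 114, 56.6 and 57.4 CPM in IKZF1-ko, against 79.8, 132 and 78.6 CPM in NT control. The groups overlapped, since IKZF1-ko replicate 1 exceeded NT control replicates 1 and 3. The library that stood apart was 1.99-fold above the mean of the others in IKZF1-ko and 1.67-fold above it in NT control. The means were 75.8 ± 32.6 CPM in IKZF1-ko and 96.7 ± 30.4 CPM in NT control (SD, n = 3 each). Within like libraries the order of the groups was the same: the ratio of IKZF1-ko over NT control was 0.861 (95% counting interval 0.806 to 0.920) in the pair and 0.720 in the other 4. The log2 fold change was -0.35 (SE 0.34) on group alone, -0.48 (SE 0.061) in the 4 libraries and -0.38 (SE 0.059) with the library-set term. The mean of the 14 hypoxia genes was highest in the same libraries, IKZF1-ko replicate 1 at 0.96 and NT control replicate 2 at 0.77, and its part in the CXCR4 level was not tested.

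CXCR2, a receptor for CXCL8 and related chemokines, was lower in IKZF1-ko by a small amount. CXCR2 (ENSG00000180871, chr2:218125289-218137253, plus strand) had 15.5, 21.1 and 20.9 CPM in IKZF1-ko, against 24.5, 19.2 and 26.4 CPM in NT control. The groups overlapped, and the library that stood apart was the lowest of its group in both. The means were 19.2 ± 3.18 CPM in IKZF1-ko and 23.4 ± 3.72 CPM in NT control (SD, n = 3 each). Log2 fold changes were -0.29 (SE 0.18), -0.28 (SE 0.096) and -0.29 (SE 0.085) in the same 3 fits, with a ratio of 0.805 (95% counting interval 0.674 to 0.962) in the pair and 0.824 in the other 4 libraries. Of the 31-base words in CXCR2 transcripts, 14.5% also occur in other genes, chiefly the pseudogene CXCR2P1 and the related receptor CXCR1. The CXCR2 value is therefore uncertain where the counting could split such reads.

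The lymphocyte receptors were at or near 0. CXCR3 (ENSG00000186810, chromosome X) had 1, 1 and 3 counts in IKZF1-ko, against 2, 1 and 1 in NT control, so no difference was detectable at this depth. CCR7 (ENSG00000126353, chromosome 17) had 0 counts in all 6 libraries, and the floor of 3 counts is 0.164 to 0.262 CPM per library. The upper bound of the two-sided 95% Poisson interval, as used for CX3CR1, is 0.201 to 0.323 CPM.

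**Figure D2:**
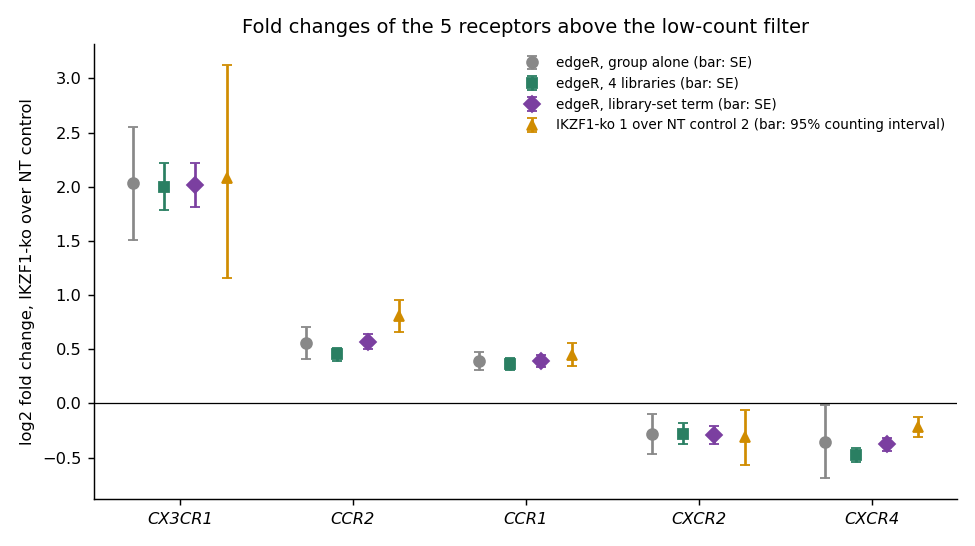
Log2 fold change, IKZF1-ko over NT control, of the 5 receptors above the low-count filter under 3 edgeR fits (bars, SE) and as the ratio of IKZF1-ko replicate 1 to NT control replicate 2 (bar, 95% counting interval). CX3CR1 lies near 2 in every one, CCR2 and CCR1 lie above 0, and CXCR2 and CXCR4 below 0, with the group-alone bar of CXCR4 the longest of its bars.

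Scaled by exon length, so that genes can be compared, CCR1 and CXCR4 were the most abundant receptors and CX3CR1 the least abundant of those above the filter. In CPM per kb, IKZF1-ko had CCR1 at 40.9 ± 1.51, CXCR4 at 34.1 ± 14.7, CCR2 at 19.8 ± 0.794, CXCR2 at 5.93 ± 0.983 and CX3CR1 at 1.92 ± 0.873. NT control had CXCR4 at 43.5 ± 13.7, CCR1 at 31.1 ± 0.402, CCR2 at 13.5 ± 2.37, CXCR2 at 7.24 ± 1.15 and CX3CR1 at 0.476 ± 0.229 CPM per kb (SD, n = 3 each). In each group CXCR4 and CCR1 differed by less than the SD of CXCR4, whereas the libraries of the other neighbours in either order did not overlap. The CXCR4 to CCR1 ratio per kb was 1.21, 0.616 and 0.659 in IKZF1-ko, against 1.15, 1.92 and 1.12 in NT control. CXCR4 exceeded CCR1 in every library except IKZF1-ko replicates 2 and 3.

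The make-up of the receptor pool differed between libraries and groups. CCR2 made up 16.1%, 21.1% and 21.6% of the summed CPM per kb of the receptors in IKZF1-ko, against 16.0%, 10.1% and 16.8% in NT control. CX3CR1 made up 0.807%, 2.75% and 2.31% in IKZF1-ko, against 0.597%, 0.209% and 0.736% in NT control. CXCR4 made up 43.3%, 26.4% and 27.5% in IKZF1-ko, against 40.1%, 55.3% and 38.8% in NT control. A share moves with every other receptor, so the CCR2 share of IKZF1-ko replicate 1 overlapped the control shares although its CCR2 level did not. The sum itself was 118, 96.2 and 94.0 CPM per kb in IKZF1-ko, against 89.5, 107 and 91.1 in NT control, and overlapped. The CX3CR1 to CCR2 ratio, which compares the receptors of nonclassical and classical monocytes, was 0.0502, 0.130 and 0.107 per kb in IKZF1-ko, against 0.0372, 0.0207 and 0.0438 in NT control. These ratios did not overlap between groups. The closest values, 0.0502 in IKZF1-ko replicate 1 and 0.0438 in NT control replicate 3, rest on 52 and 28 CX3CR1 counts. The counting intervals of these CX3CR1 levels overlapped. CX3CR1 was chosen with this comparison in view, and the share of other gene pairs with such ratios was not computed.

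**Figure D3:**
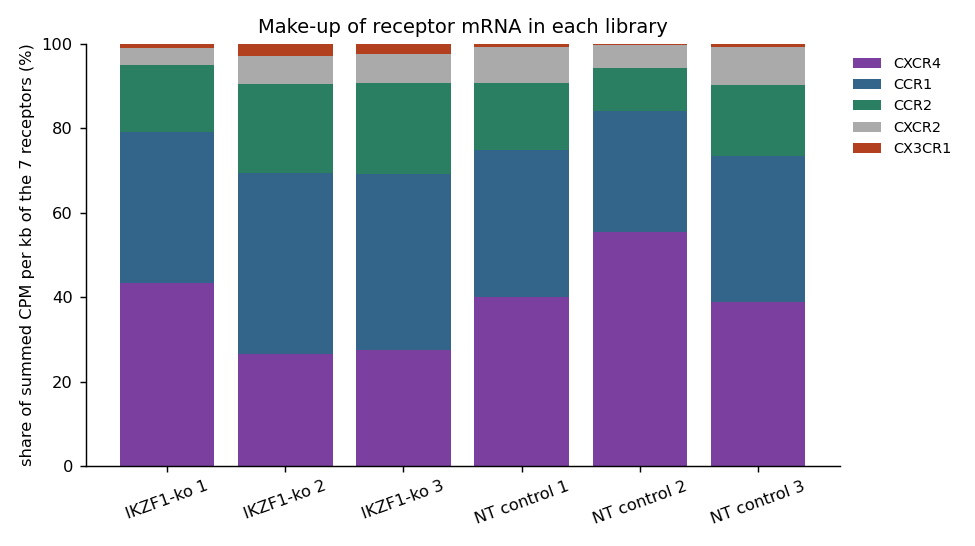
Share of the summed CPM per kb of the receptors held by CXCR4, CCR1, CCR2, CXCR2 and CX3CR1 in each library (CXCR3 is too low to be seen and CCR7 is at 0). CXCR4 holds from 26.4% (IKZF1-ko replicate 2) up to 55.3% (NT control replicate 2), and the CX3CR1 band at the top is widest in IKZF1-ko replicates 2 and 3.

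The library profiles showed how the receptors varied among themselves. CX3CR1, CCR2 and CXCR2 were lowest, and CXCR4 highest, in the library of each group that stood apart, and CCR1 was nearly level within groups. For each receptor the nearest genes were those with the smallest root mean square difference in centred log2 CPM over the 6 libraries, among about 10146 tested genes with a mean of at least 5 CPM. For CX3CR1 they were CSF1R, the receptor of macrophage growth factor, at 0.23, WLS, the carrier of Wnt proteins, at 0.32, and NRP1, a co-receptor of semaphorins and VEGF, at 0.42. CSF1R had 7.82, 16.8 and 14.1 CPM in IKZF1-ko, against 4.58, 1.30 and 3.85 CPM in NT control. CXCR4 was nearest to RGS1, a regulator of G protein signalling, at 0.077, followed by the integrin chain ITGAX at 0.086 and PIWIL4 at 0.088. RGS1 had 7.42, 3.93 and 3.96 CPM in IKZF1-ko, against 6.02, 8.53 and 5.51 CPM in NT control.

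For CCR1 and CXCR2 the nearest genes lay within a few hundredths of a log2 unit, and for CCR2 at distances close to those of CXCR4. CCR1 was nearest to the phosphatases CTDSP2 at 0.038 and PTPN12 at 0.041 and to CACNA2D3, a calcium channel subunit, at 0.052. CCR2 was nearest to APBA1 at 0.067, the splicing factor RBFOX2 at 0.070 and the interleukin 13 receptor chain IL13RA1 at 0.076. CXCR2 was nearest to the mitochondrial genes NDUFAB1 at 0.015 and MTCH2 at 0.034 and to ZNF232 at 0.035. These distances describe likeness over 6 libraries that share 2 sources of difference, the group and the library set.

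**Figure D4:**
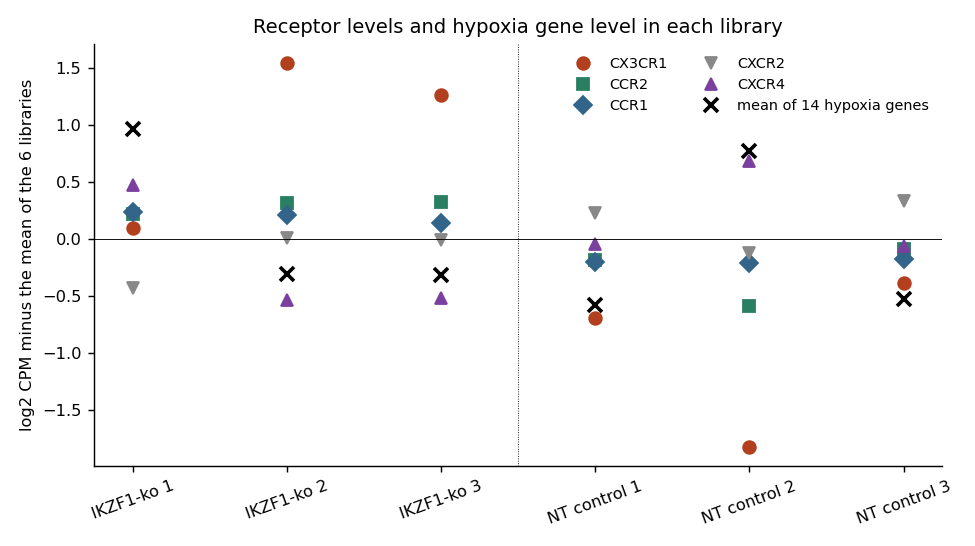
Log2 CPM minus the 6-library mean for the 5 receptors and the mean of 14 hypoxia genes (crosses), with IKZF1-ko libraries on the left and NT control on the right. CXCR4 and the hypoxia genes are highest in IKZF1-ko replicate 1 and NT control replicate 2, where CX3CR1 is lowest of its group.

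CCR1 and CCR2 lie in a receptor gene cluster, and the neighbours described here were low in both groups. CCRL2 is an atypical receptor that presents chemerin, and the left end of its gene lies 205 kb from that of CCR1. It averaged 1.28 ± 0.401 CPM in IKZF1-ko and 1.63 ± 0.642 CPM in NT control (SD, n = 3 each; edgeR adjusted p = 0.48 with the library-set term). CCR3, the eotaxin receptor, was at 0.450 ± 0.137 CPM in IKZF1-ko and 0.457 ± 0.195 CPM in NT control, CCR9 was lower still, and CXCR6 and XCR1 had 0 counts. CX3CR1 lies on the same arm, at -6938 kb on this scale.

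**Figure D5:**
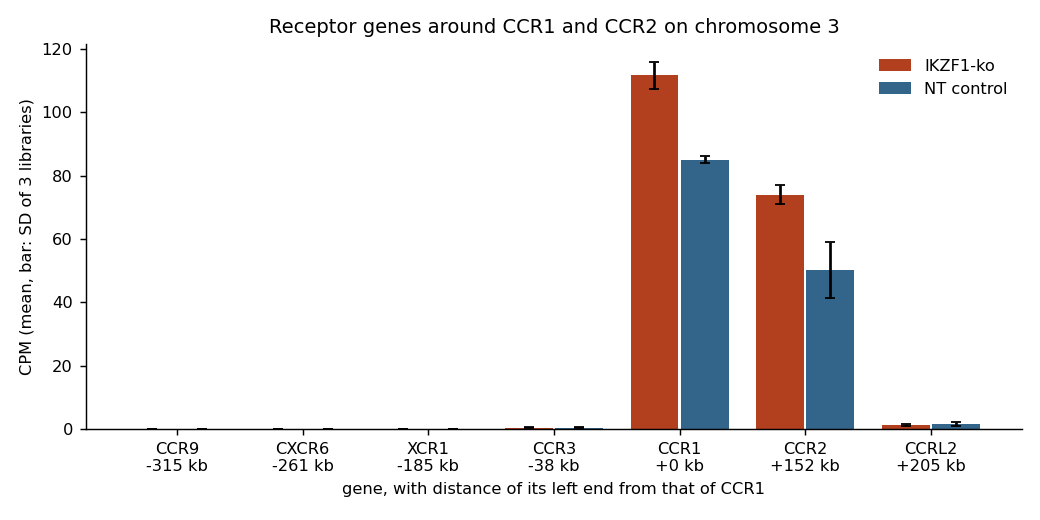
Mean CPM with SD of 3 libraries for receptor genes around CCR1 and CCR2 on chromosome 3, in gene order and labelled with the distance of the gene's left end from that of CCR1. CCR1 and CCR2 stand higher in IKZF1-ko, the CCRL2 bars overlap within their SD, and the genes to the left of CCR1 are near 0.

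Beyond these genes, 15 other chemokine and atypical receptors were listed, and 2 passed the filter, CCRL2 and ACKR3, the atypical receptor of CXCL12. EdgeR called 0 of these with the library-set term and 0 within the 4 libraries, against 13.5% and 14.7% of all genes. ACKR3 had 1.74, 1.04 and 1.71 CPM in IKZF1-ko, against 0.848, 2.18 and 1.22 CPM in NT control, which overlapped. CCR6, CCR8, CXCR1, CXCR6, XCR1, ACKR1 and ACKR4 had 0 counts in all libraries.

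Of 46 chemokine ligand genes in the table, 24 had 0 counts in all libraries. Among them were CX3CL1 (fractalkine), the ligand of CX3CR1, CXCL12, a ligand of CXCR4, and CCL7, a ligand of CCR2. CCL19 and CCL21, the ligands of CCR7, also had 0 counts. The 6 ligand genes that passed the filter were CCL5, CCL20, CCL23, CXCL6, CXCL8 and MIF. MIF was at 17.7 ± 2.32 CPM in IKZF1-ko and 19.9 ± 4.85 CPM in NT control (SD, n = 3 each; edgeR adjusted p = 0.37 with the library-set term). CCL2, the main ligand of CCR2, was at 0.181 ± 0.156 CPM in IKZF1-ko and 0.190 ± 0.0653 CPM in NT control (SD, n = 3 each). With the library-set term 0 of the 6 tested ligands rose and 2 fell, against 6.93% and 6.62% of all genes. The median log2 fold change was -0.17 in the 4 libraries and -0.39 with that term, against 0.0015 and 0.0022 for all genes. CXCL8, a ligand of CXCR2, fell 1.83-fold (log2 -0.87, SE 0.14, edgeR adjusted p = 4.6e-04). It had 4.61, 5.13 and 6.21 CPM in IKZF1-ko, against 9.84, 9.08 and 10.1 CPM in NT control, with no overlap. CCL5, a ligand of CCR1, fell 1.26-fold (edgeR adjusted p = 0.0032). It had 78.6, 68.6 and 66.0 CPM in IKZF1-ko, against 77.4, 116 and 77.6 CPM in NT control, which overlapped through IKZF1-ko replicate 1. On group alone edgeR called 0 genes of any list, while DESeq2 called 1 chemokine ligand and 1 gene of ligand release and trimming. The calls on single listed genes are those of the fit with the library-set term unless another is named.

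Other receptors for chemoattractants differed in both directions. With the library-set term 1 of 10 tested genes rose and 3 fell, against 6.93% and 6.62% of all genes. C3AR1, the receptor of complement fragment C3a, fell 2.09-fold, with 1.65 ± 0.105 CPM in IKZF1-ko and 3.45 ± 0.188 CPM in NT control (SD, n = 3 each; edgeR adjusted p = 0.0043). P2RY2, a nucleotide receptor, fell 1.30-fold, with 53.7 ± 1.57 CPM in IKZF1-ko and 70.4 ± 10.4 CPM in NT control (adjusted p = 0.0025). P2RY6, the receptor of UDP, rose 1.30-fold, with means of 17.5 CPM in IKZF1-ko and 13.5 CPM in NT control (log2 0.38, SE 0.098, n = 3 each; edgeR adjusted p = 0.016), and its groups did not overlap. The P2RY6 call was lost with DESeq2, without NT control replicate 1 and without IKZF1-ko replicate 3 (adjusted p = 0.068, 0.057 and 0.092). PTAFR, the receptor of platelet-activating factor, averaged 2.93 ± 0.565 CPM in IKZF1-ko and 4.58 ± 1.62 CPM in NT control, and counts as the third fall with an adjusted p of 0.04997, which was 0.205 in the 4 libraries and passed the threshold in 6 of 12 alternatives. FPR1 and C5AR1, receptors of formyl peptides and complement C5a, were below 1 CPM in every library.

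Most genes of the machinery that chemokine receptors signal through were not called. Of 32 tested signalling genes 5 rose and 5 fell with the library-set term, against 6.93% and 6.62% of all genes, and the median log2 fold change was 0.0030. GNAI2, the main inhibitory G protein alpha subunit of leukocytes, was at 296 ± 5.53 CPM in IKZF1-ko and 299 ± 23.4 CPM in NT control (SD, n = 3 each; edgeR adjusted p = 0.91). PREX1, an exchange factor that activates Rac, rose 1.30-fold, with 148, 133 and 125 CPM in IKZF1-ko against 95.6, 124 and 95.4 CPM in NT control (adjusted p = 1.6e-04). PLCB3, a phospholipase driven by G proteins, rose 1.27-fold (adjusted p = 0.0030), and PIK3R5, a regulatory subunit of PI3K gamma, rose 1.21-fold (adjusted p = 0.0075). LIMK1, a kinase of actin turnover, fell 1.27-fold (adjusted p = 0.0026). GNG5, a G protein gamma subunit, fell 1.20-fold (adjusted p = 0.0050), and RAC2, the Rac GTPase of blood cells, fell 1.16-fold (adjusted p = 0.0085). LIMK1, PIK3R5 and RAC2 overlapped between groups. Leaving out NT control replicate 3 ended the call of PIK3R5 (adjusted p = 0.052), and leaving out IKZF1-ko replicate 3 ended that of RAC2 (adjusted p = 0.063).

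Among 24 genes that end receptor signalling, 2 rose and 1 fell with the library-set term, near the 6.93% and 6.62% of all genes. In the 4 libraries 4 rose and 1 fell, where 14.7% of all genes were called in either direction. The 3 genes that passed with the library sets modelled were RGS3, RGS10 and RGS18, regulators of G protein signalling. RGS3 had 2.74, 3.93 and 3.90 CPM in IKZF1-ko, against 1.36, 1.02 and 1.84 CPM in NT control, and rose 2.51-fold (log2 1.33, SE 0.24, edgeR adjusted p = 0.0012). RGS10 rose 1.44-fold, with 35.1 ± 5.81 CPM in IKZF1-ko and 24.5 ± 5.81 CPM in NT control (SD, n = 3 each; adjusted p = 2.9e-04). RGS18 fell 1.36-fold, with 40.8 ± 4.92 CPM in IKZF1-ko and 55.3 ± 4.50 CPM in NT control (adjusted p = 1.6e-04). The groups did not overlap for any of the 3, which were picked as called genes. Of all tested genes, 9.35% had groups that did not overlap. For RGS10 the gap was narrow, with 31.72 CPM in IKZF1-ko replicate 2 against 30.99 CPM in NT control replicate 2. The receptor kinase gene GRK2 and the arrestin genes ARRB1 and ARRB2 were not called with the library-set term, with log2 fold changes of 0.09, 0.11 and 0.11. In the 4 libraries GRK2 (log2 0.17, adjusted p = 0.0035) and ARRB1 (log2 0.22, adjusted p = 0.017) were called.

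Genes for the release and trimming of chemokines were called in both directions, at 1.51- to 1.71-fold. Of 8 tested genes 3 rose and 1 fell with the library-set term, against 6.93% and 6.62% of all genes. CTSG, the neutrophil protease cathepsin G, had 388, 414 and 381 CPM in IKZF1-ko, against 247, 291 and 245 CPM in NT control, and rose 1.51-fold (edgeR adjusted p = 2.3e-06). ELANE, neutrophil elastase, had 287, 161 and 147 CPM in IKZF1-ko, against 78.7, 199 and 84.8 CPM in NT control. It rose 1.71-fold (adjusted p = 1.1e-06), with overlapping groups and its highest values in the libraries that stood apart. DPP4, which clips the amino end of CXCL12 and other chemokines, rose 1.61-fold, with 15.7 ± 3.39 CPM in IKZF1-ko and 9.81 ± 3.04 CPM in NT control (SD, n = 3 each; adjusted p = 4.2e-04). TIMP1, a metalloprotease inhibitor, fell 1.53-fold (adjusted p = 0.0015). ADAM10 and ADAM17, which shed CX3CL1 from cell surfaces, were at 180 ± 9.45 and 77.4 ± 2.27 CPM in IKZF1-ko and at 170 ± 4.95 and 75.2 ± 7.16 CPM in NT control, and were not called.

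Markers of the cells that carry CX3CR1 and CCR2 moved in part with these receptors. Of 15 macrophage and microglia markers, 4 passed the filter and 3 of them rose with the library-set term, against 6.93% of all genes. The median log2 fold change over the 4 was 1.64. All gene lists were chosen with earlier results of these data known, so such counts are a description and carry no weight as evidence. TREM2, a microglial lipid receptor, had 12.2, 28.6 and 28.6 CPM in IKZF1-ko, against 4.16, 0.751 and 4.99 CPM in NT control (edgeR adjusted p = 5.4e-09). AIF1, also known as IBA1, rose 2.39-fold, with 29.3 ± 2.17 CPM in IKZF1-ko and 12.3 ± 1.74 CPM in NT control (SD, n = 3 each; adjusted p = 1.7e-07), and CSF1R rose 4.07-fold (adjusted p = 5.1e-07). The complement genes C1QA, C1QB and C1QC and SALL1, defining genes of tissue macrophages or microglia, had 0 counts. The summed level of the list was 133 to 166 CPM in IKZF1-ko and 106 to 122 CPM in NT control, and its part in the CX3CR1 level was not tested.

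Markers of monocyte subsets differed in both directions. Of 9 tested nonclassical monocyte markers 1 rose and 0 fell with the library-set term, near the share of all genes. That was LST1, with 36.6, 54.2 and 50.2 CPM in IKZF1-ko against 43.7, 25.9 and 38.4 CPM in NT control (edgeR adjusted p = 0.0017), and the groups overlapped. FCGR3A, which encodes the CD16 that defines these monocytes, CDKN1C and HES4 had 0 counts, and the summed level was 1683 to 2015 CPM in IKZF1-ko and 1692 to 2011 CPM in NT control. Of 5 tested classical monocyte markers 3 rose and 1 fell, against 6.93% and 6.62% of all genes. S100A9 had 38.1, 38.1 and 42.6 CPM in IKZF1-ko, against 25.8, 25.2 and 21.2 CPM in NT control (adjusted p = 3.4e-05), VCAN rose 1.57-fold (adjusted p = 0.011), and LYZ, lysozyme, fell 1.28-fold (adjusted p = 1.2e-04). CSF3R, the receptor of granulocyte growth factor, rose 1.12-fold with that term (adjusted p = 0.037), but with a surrogate variable in its place the adjusted p was 0.75. The VCAN call was lost with DESeq2, without NT control replicate 1 and without IKZF1-ko replicate 2 (adjusted p = 0.051, 0.052 and 0.062). Leaving out NT control replicate 1 or 3, or IKZF1-ko replicate 2 or 3, also ended the CSF3R call. CD14, the defining classical marker, was at 0.485 ± 0.198 CPM in IKZF1-ko and 0.215 ± 0.264 CPM in NT control, and the summed level of the list was 521 to 630 CPM in IKZF1-ko and 531 to 657 CPM in NT control. The part of either list in the receptor levels was not tested.

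The 8 markers of myeloid leukemia identity, the labelled cell type, all had counts and summed to 1149 to 1243 CPM in IKZF1-ko and 1072 to 1171 CPM in NT control. ANPEP and ITGAM did not pass the filter on low counts, with 1 to 8 and 5 to 20 counts per library. The lymphocyte markers CD3E, CD3G, CD2, MS4A1 and CD22 had 0 counts in all libraries. The T and NK cell list summed to 30.2 to 34.9 CPM in IKZF1-ko and 32.9 to 45.6 CPM in NT control, chiefly NCAM1 and NKG7, and 0 of its 2 tested genes were called. The B cell list summed to 13.7 to 18.0 CPM in IKZF1-ko and 13.6 to 15.6 CPM in NT control, chiefly PAX5, with 0 of 2 called.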

How the data were processed

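Polyadenylated RNA of 3 IKZF1-ko and 3 NT control libraries of OCI-AML2 cells was isolated with an RNeasy kit and made into stranded mRNA libraries, per the labels' protocols. The authors deposited whole-number read counts per gene, without scaling. The submitters' processing notes name Trimmomatic, STAR and GRCh38. Which counter, strand setting and annotation were used is not given in the sources used here. Exon overlaps between genes therefore leave values uncertain. Symbols came from a gene name table (57392 of 58233 identifiers) and positions from GENCODE 29 on GRCh38 (57895 identifiers). Of 247 listed symbols 246 were matched, all but CCL3L1. A gene withheld from reporting is not given here.

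Library totals ranged from 11300519 to 18214328 counts. A filter on low counts (filterByExpr by group) left 13028 genes with 99.9% of all counts. CPM values use TMM factors, and centred log2 CPM a prior count of 2. Genes were called with the two-sided quasi-likelihood test of edgeR 4.0.16 (R 4.3.3), with Benjamini-Hochberg adjustment over all tested genes and a threshold of 0.05. It was run on group alone, on the 4 libraries other than IKZF1-ko replicate 1 and NT control replicate 2, and on all 6 with a library-set term. The set is the sign of the first principal component of the same counts, so p-values with that term treat the sets as given. Standard errors are the size of the log2 fold change over the square root of F. The fits were also run on simulated counts with the same spread setting for all genes and library-set means taken from these data. That run does not show how the fits perform on the real counts.

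The receptors, the gene lists, the fits and the alternatives were chosen with earlier results of these data known. Named genes are the 7 receptors; up to 6 called members of each pathway list and 4 of each marker list by lowest adjusted p, or those with the highest CPM where none was called; and the 3 genes most like each receptor. Other listed genes are named because they are defining markers or main ligands, or are at or near 0, and were chosen after their values were seen. Alternatives were other scalings, no filter or at least 1 CPM, DESeq2 1.42.0, a surrogate variable from sva 3.50.0 in place of the library set, a replicate block, and leaving out each library. Promoter sequences are RefSeq's, for 6 of the 7 receptors, all but CCR7. Figures were drawn with matplotlib 3.10.9.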

Additional observations from a re-analysis of the deposited data

How the results depend on the processing

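On group alone the count of called genes was 0 with edgeR, 8 without the filter on low counts and 71 with DESeq2, and 0 to 0 with each library left out. In the 4 libraries it was 1908, 825 with DESeq2 and 1339 to 1501 with a library left out. With the library-set term it was 1765, 1159 with DESeq2, 1030 with a surrogate variable and 811 to 1943 with a library left out, the lowest without IKZF1-ko replicate 3 and 948 without NT control replicate 1. Other scalings and filters kept the last 2 counts within 1.5 times. The fold changes of the 5 receptors above the filter kept their sign in all 12, 9 and 12 alternatives of the fits on group alone, on the 4 libraries and with the set term. CX3CR1 ranged between 1.68 and 2.36 on the log2 scale on group alone and between 1.91 and 2.22 with the set term, and CXCR4 between -0.76 and -0.06 on group alone but between -0.49 and -0.46 in the 4 libraries. Of the other named genes, NDRG1 reversed, at -0.065 with a surrogate variable (adjusted p = 0.43), and the cause was not tested. Replicate numbers did not pair the libraries, since deviations from the group means correlated at -0.66, -0.69 and 0.59 between libraries numbered 1, 2 and 3. With the replicate block on group alone 0 genes were called. Depth limits CX3CR1 most, with 12 counts in NT control replicate 2, and leaves CXCR3 and CCR7 without a comparison.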

Other observations

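Of 14 tested genes that respond to low oxygen, 6 rose and 0 fell in IKZF1-ko with the library-set term, against 6.93% and 6.62% of all genes, beside the much larger difference between libraries of a group. P4HA1, a collagen prolyl hydroxylase, had 422, 139 and 144 CPM in IKZF1-ko, against 111, 329 and 114 CPM in NT control. VEGFA, a growth factor of blood vessels, was at 102, 101 and 98.5 CPM in IKZF1-ko, against 73.0, 92.5 and 63.0 CPM in NT control, and rose 1.33-fold (edgeR adjusted p = 0.0015). ENO2, an enolase, rose 1.46-fold (adjusted p = 5.9e-04), with overlapping groups. When a surrogate variable replaced that term, ENO2 (log2 0.20, adjusted p = 0.20), P4HA1 (log2 0.10, adjusted p = 0.24) and NDRG1 (log2 -0.065, adjusted p = 0.43) were not called. The count of 6 was therefore not kept with the surrogate variable. Within the 4 libraries, fitted without that term, 5 of 13 tested genes rose and 0 fell, where 14.7% of all genes were called in either direction. Among the 5 were P4HA1, ENO2 and NDRG1 (edgeR adjusted p = 2.7e-05, 0.0045 and 0.040). FLT3, a receptor kinase of leukemic blasts, was the 1 called gene of 6 tested in the myeloid leukemia identity list, at 234 ± 53.8 CPM in IKZF1-ko and 197 ± 35.9 CPM in NT control (SD, n = 3 each; adjusted p = 0.0036). With the surrogate variable its adjusted p was 0.053, and 1 of 6 is to be read against 6.93% of all genes.

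Markers of other lineages were low. The erythroid and platelet list summed to 1.97 to 2.42 CPM in IKZF1-ko and 1.27 to 2.12 CPM in NT control, with 0 of 2 tested genes called. The stroma and epithelium list summed to 74.3 to 91.7 CPM in IKZF1-ko and 84.2 to 94.3 CPM in NT control, nearly all from PECAM1, which leukocytes also express. PECAM1 was not called with the library-set term (adjusted p = 0.14) and was lower in IKZF1-ko in the 4 libraries (adjusted p = 0.048).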
